A study of Mus with 2 samples.

Results

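Genes of the NRF2 pathway were read on mouse whole-genome arrays in bone marrow-derived macrophages (BMDMs) given GW4064 or its solvent DMSO. The 10 genes were chosen by name for their place in the pathway and not by a cut-off on their values. Earlier results of these data were known when they were chosen. They comprise the transcription factor gene Nfe2l2, its inhibitor gene Keap1 and 8 genes of antioxidant defence that NRF2 is known to control. The 8 are Nqo1, Hmox1, Gclc, Gclm, Gsr, Txnrd1, Srxn1 and Slc7a11. The 10 genes are among 13529 measured, and each was found through the RefSeq transcript that the array gives for its probe. Both groups were BMDMs of 10-week-old male C57BL6/J mice, grown for 7 d with M-CSF and then kept for 24 h under M2 conditions, which here meant IL-4 at 10 ng/mL. The DMSO group had the solvent during those 24 h, and the GW4064 group had 10 µM of GW4064, a synthetic agonist of the farnesoid X receptor (FXR). Each group was 1 RNA sample on 1 single-colour Agilent array, so there is no replicate error, no test and no p-value, and precision is limited by there being a single array on each side. The free-text description of the GW4064 sample repeats the DMSO wording, so its group was taken from its treatment field, title and source name, which all give GW4064, and the sign of every difference rests on these labels. The cells were cultured bone marrow cells in bulk, and whether cells of 1 mouse or of several were used is not given in the sources used here.

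NRF2, the product of Nfe2l2, is a transcription factor that KEAP1 holds in the cytoplasm and passes to a CUL3 ubiquitin ligase for degradation. Electrophiles and oxidants modify cysteines of KEAP1, NRF2 then accumulates, pairs with a small MAF protein and binds antioxidant response elements. Its targets make and recycle glutathione and thioredoxin, reduce quinones and break down heme, and in macrophages the pathway is known for limiting oxidative damage and inflammatory gene expression. Since NRF2 is controlled largely at the protein level, its mRNA and its protein can move apart, and protein was not measured on the arrays.

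The signal below is the brightness of a spot after the scanner software had subtracted the background. The log2 difference is GW4064 minus DMSO once the 75th percentiles of the arrays, 1209 (DMSO) and 1265 (GW4064), had been brought together. All 12 probes for the 10 genes were well above background on both arrays, with 1 probe for 8 genes and 2 probes each for Hmox1 and Gsr, and each of the 12 was printed once. Lacking replicates, technical measures of spread were set beside the differences. The scanner software's own error of the signals came to a log2 error of between 0.20 and 0.21 for the 12 differences. It was a nearly fixed share of each signal and not a spread seen over these spots. Multiples of it given below therefore largely restate the size of a difference. Among 234 probes printed 10 times, the median SD of the log2 difference over the copies was 0.077. In 2709 genes measured by 2 probes, both well above background, the probes differed by a median of 0.10, and by 0.46 at the 95th percentile. None of these covers the difference between one culture and another. Macrophage markers were bright, with all 7 that had a matched probe well above background on both arrays, 4 higher and 3 lower with GW4064 and a median of 0.055. Of the markers of other cells, 10 of 11 stromal and 7 of 7 granulocyte genes measured were lower with GW4064, with medians over each list of -0.76 and -0.79. Of 4 dendritic cell markers measured, 2 were higher and 2 lower (median 0.20), and of 3 lymphocyte markers 1 was higher and 2 lower (-0.13). Of 2 erythroid markers, 2 were lower (-1.13). The lower of them, Klf1, named after its values were seen, was well above background with DMSO alone, at -1.91 or below. Its probe had 6 spots differing 8-fold or more within 300 µm. Flt3, a dendritic cell marker chosen after its values were seen, was well above background with GW4064 alone and at least 4.94-fold higher there, from 1 probe with a signal of 81.5. Areas in which 2 or more spots differing 8-fold or more between the arrays lay within 300 µm, called clustered areas below, held 16.5% of the spots. They were defined from the differences themselves, and their origin was not tested. They held 1 of the 2 probes for Hmox1 and 1 of the 2 for Gsr. The Flt3 probe lay in one too, with 3 spots differing 8-fold or more near it. The other Flt3 probe was well above background on neither array. Without these areas, 0 of 3 dendritic cell markers measured were past 2-fold.

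Of the 10 genes, only Gsr differed by more than 1.5-fold between the arrays. Gsr, which encodes glutathione reductase, was 1.77-fold higher with GW4064. The 9 other genes lay between log2 differences of -0.32 and 0.33, with Gclc highest and Slc7a11 lowest. None of the 10 genes reached a 2-fold difference in either direction. Over all genes measured, 2.04% were higher by at least 2-fold and 2.71% lower, so that a count of 0 among 10 genes does not set them apart. At 1.5-fold, 1 of the 10 genes was higher, against 4.39% of all genes. The signs were evenly split, 5 higher and 5 lower, and the median log2 difference was -0.017, beside 0.0068 over all genes.

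**Figure D1:**
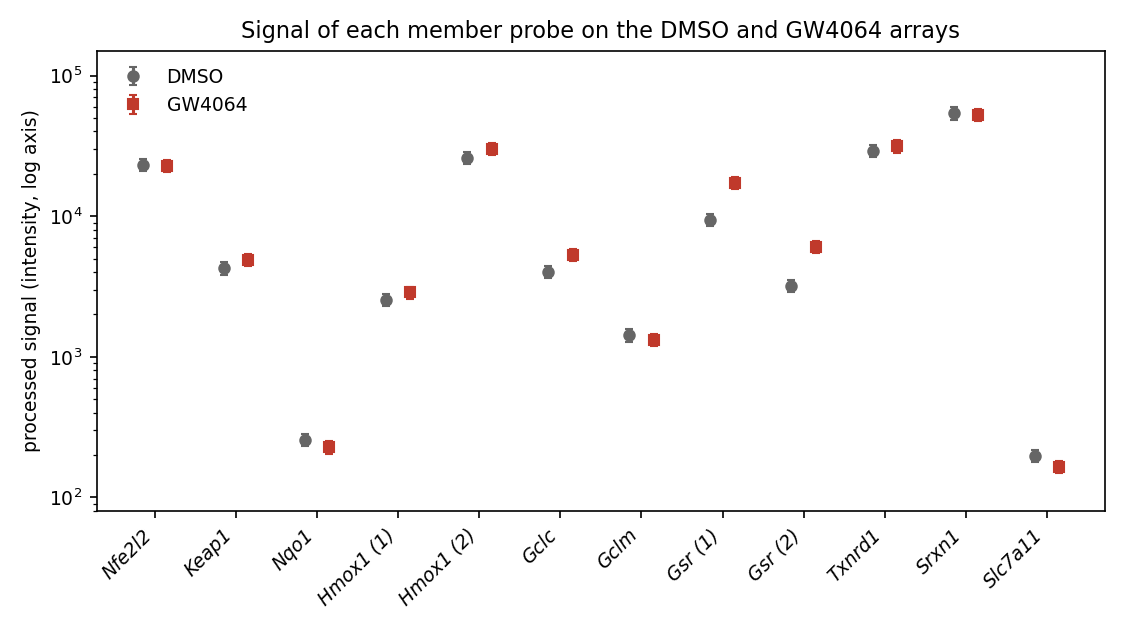
Processed signal (intensity, log axis) of each probe of the NRF2 pathway genes on the DMSO array (grey circles) and on the GW4064 array (red squares), before scaling between the arrays. Bars are the scanner software's error of each spot, (1) and (2) mark separate probes of a gene, and signals are to be read within a probe. Both Gsr probes stand apart, from 9433 to 17260 and from 3209 to 6037. The bars of the arrays do not overlap for Gclc either, while for all remaining genes they overlap.

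The factor and its inhibitor were close to level on the arrays. Nfe2l2 (NM_010902) had a signal of 23139 with DMSO and 22917 with GW4064, a log2 difference of -0.080. Keap1 (NM_016679) had 4267 and 4900, a log2 difference of 0.13. Both differences were smaller than the software's error of 0.20, and that of Nfe2l2 was about the size of the SD over copies of a probe. The measured partners of both proteins lay in a somewhat wider range, between -0.16 and 0.15. Of 11 genes listed as partners and regulators (small MAF proteins, BACH repressors, related factors, the KEAP1-CUL3 ligase, the p62 protein Sqstm1 and the beta-TrCP protein Btrc), 10 could be measured (5 higher, 5 lower, none by 2-fold). Their median was 0.00019. Btrc, an adaptor of another ligase that marks NRF2, was the highest of those well above background on both arrays, with 0.12, and Nfe2l1, the gene of the related factor NRF1, was the lowest of them, with -0.16. Mafg, whose product pairs with NRF2, was read by 3 probes with differences of 0.031, -0.014 and 0.021. Mafg was chosen for mention after its values were seen.

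The genes of glutathione synthesis differed from each other in direction. Slc7a11 encodes the subunit of the cystine/glutamate antiporter that carries cystine into the cell, and cysteine is the limiting amino acid of glutathione. Its single probe (NM_011990) read 197 with DMSO and 165 with GW4064, the dimmest of the 12 probes on both arrays, at 12.5 and 10.9 times the lowest signal counted as well above background. The log2 difference was -0.32, a 1.25-fold lower signal, or 1.55 times the software's error. Slc3a2, the heavy chain that brings this antiporter to the membrane, was lower as well (signals 38845 and 31743), with a log2 difference of -0.36. Slc3a2 was chosen as the partner of Slc7a11 after its values were seen, and it also carries other transporters.

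Gclc and Gclm encode the catalytic and the modifier subunit of glutamate-cysteine ligase, the rate-limiting enzyme of glutathione synthesis. Gclc (NM_010295) had a signal of 4029 with DMSO and 5300 with GW4064, a log2 difference of 0.33 and 1.62 times the software's error. Gclm (NM_008129) had 1427 and 1320, a log2 difference of -0.18 and below that error. The subunits thus had opposite signs. The difference of Gclc exceeded that of Gclm by 0.51, with a combined software error of 0.29. Shifting a whole array by a constant does not change this value, while quantile and loess scaling can. The spots around Gclc were themselves higher on the GW4064 array. Up to 5 rows and columns away from it, the median log2 difference of other spots well above background was 0.18, against -0.052 to 0.061 around the other 11 probes, and its part in the difference of Gclc was not tested. Gss, which joins glycine in the last step of synthesis, had a log2 difference of -0.073.

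Gsr was the gene of the pathway that differed most. Glutathione reductase uses NADPH to turn oxidised glutathione back to its reduced form. The first probe (NM_010344) read 9433 with DMSO and 17260 with GW4064, which is 0.81 on the log2 scale. The second, matched to the same transcript, read 3209 and 6037, which is 0.85. The probes differed by less than the median gap between 2 probes of a gene, and each difference was about 4 times the software's error, at 3.95 and 4.15 times. The first probe lay in an area with 4 spots that differed 8-fold or more within 300 µm, and the second had 0 such spots around it. The mean of both, 0.83, was the 365th highest of 13529 genes, so that 2.70% of all genes were at or above it. Among genes with a probe well above background on both arrays it was the 165th highest of 12575. Without the clustered areas, Gsr rested on its second probe and was the 219th highest of 11503 genes.

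**Figure D2:**
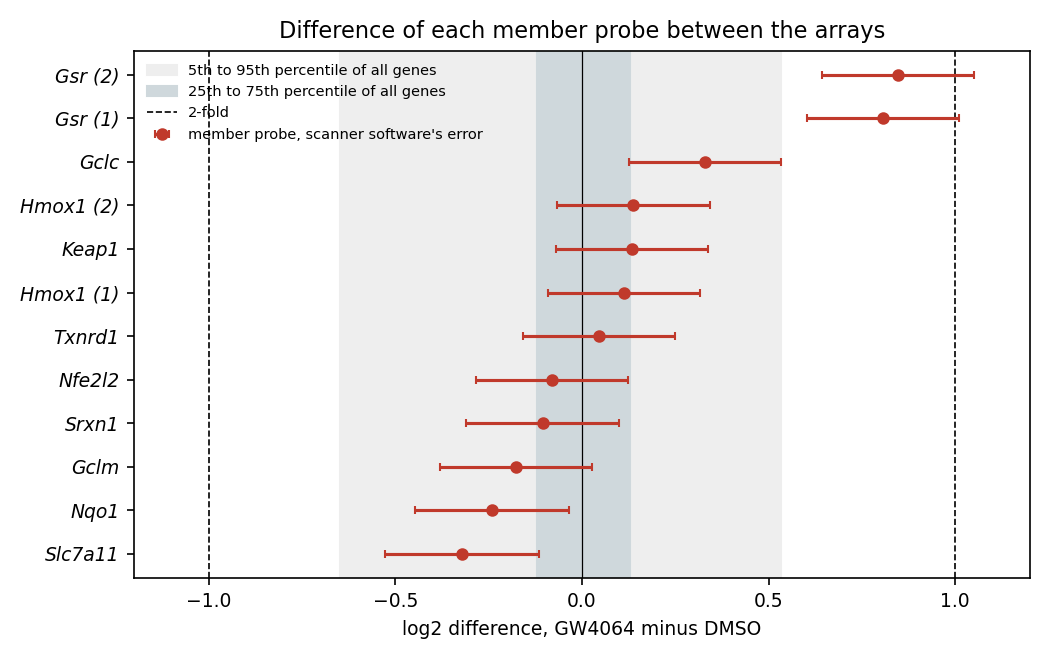
Log2 difference, GW4064 minus DMSO, of each probe of the NRF2 pathway genes, ordered by size, with the scanner software's error as bars. Light and dark shading span the 5th to 95th and the 25th to 75th percentiles of all 13529 genes, and dashed lines mark 2-fold. The Gsr probes, at 0.81 and 0.85, lie beyond the 95th percentile of 0.53, and the other 10 probes lie within the light band.

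The other enzymes that make, use or carry glutathione lay on both sides of 0, with more of them lower. Of 24 genes listed for glutathione enzymes and transport, 22 could be measured, with 0 past 2-fold in either direction. Of these 22, 7 were higher and 15 lower, with a median of -0.10, where 51.6% of all genes were higher. The highest of them was Gsta3, a glutathione S-transferase of the alpha class, with probes at 0.55 and 0.48. The lowest was Gstt1, a transferase of the theta class, with -0.52 from signals of 152 and 111. Of the glutathione peroxidases, Gpx4, which reduces lipid peroxides in membranes, had 0.37 and Gpx1 had -0.14. Both were chosen after their values were seen, and the Gpx4 spot lay in a clustered area with 4 spots differing 8-fold or more. The genes that supply the NADPH for Gsr were also mixed in sign. Of 6, 4 were higher and 2 lower, from Me1, the cytosolic malic enzyme, with -0.40 over 3 probes, to Idh1, the cytosolic isocitrate dehydrogenase, with 0.21. G6pdx, the entry enzyme of the pentose phosphate pathway and chosen after its value was seen, had -0.22.

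In the thioredoxin branch, the member genes were nearly level. Txnrd1 encodes the cytosolic thioredoxin reductase, which like glutathione reductase draws on NADPH. It had a signal of 29080 with DMSO and 31390 with GW4064 (NM_001042523), a log2 difference of 0.045, the smallest of the 10 genes and below the SD over copies of a probe. The difference of Gsr exceeded that of Txnrd1 by 0.78. Srxn1 encodes sulfiredoxin, which restores peroxiredoxins whose cysteine has been oxidised to the sulfinic acid. Its signal was 54065 with DMSO and 52584 with GW4064 (NM_029688), a log2 difference of -0.11, within the software's error. Of 14 genes for thioredoxins, peroxiredoxins and sestrins, all were measured, 11 were higher and 3 lower, none by 2-fold, and the median was 0.10, where 51.6% of all genes were higher. By quantile and by loess scaling 9 were higher and 5 lower. Txn2, the mitochondrial thioredoxin, was the highest with 0.38 (signals 25677 and 35038). Prdx4, the peroxiredoxin of the endoplasmic reticulum, was the lowest with -0.18. Prdx5 had 0.37 and Prdx6 had 0.34 as the mean of 4 probes. Prdx1, a substrate of sulfiredoxin, had probes at -0.073 and -0.0025. These peroxiredoxins other than Prdx4 were chosen after their values were seen.

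Nqo1 and Hmox1, the targets most often used as readouts of NRF2, differed little and in opposite directions. Nqo1 encodes a quinone reductase. Its signal was low, 258 with DMSO and 228 with GW4064 (NM_008706), 16.4 and 15.1 times the lowest signal counted as well above background, and the log2 difference was -0.24. That is a 1.18-fold lower signal with GW4064 and 1.17 times the software's error. Hmox1 encodes the inducible heme oxygenase, which cleaves heme into biliverdin, iron and carbon monoxide. Its probes, both matched to NM_010442, read 2535 and 26069 with DMSO and 2869 and 30018 with GW4064. The log2 differences of 0.11 and 0.14 agreed closely with each other and were both below the software's error. The brighter probe lay in an area with 4 spots that differed 8-fold or more within 300 µm, and the other had 0. Of 18 genes listed for quinone, carbonyl and heme handling, 17 could be measured. Of these 17, 6 were higher and 11 lower, with a median of -0.087, where 51.6% of all genes were higher. Hmox2, the constitutive heme oxygenase, was the highest with 0.17. The lowest was Akr1b7, an aldo-keto reductase, which was the 1 gene of this list past 2-fold, with -1.75. Its signals of 87.1 and 27.0 came from 1 spot in a clustered area with 6 spots differing 8-fold or more, its difference was -0.93 after a background correction by the normexp model, and outside the clustered areas it had no probe.

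**Figure D3:**
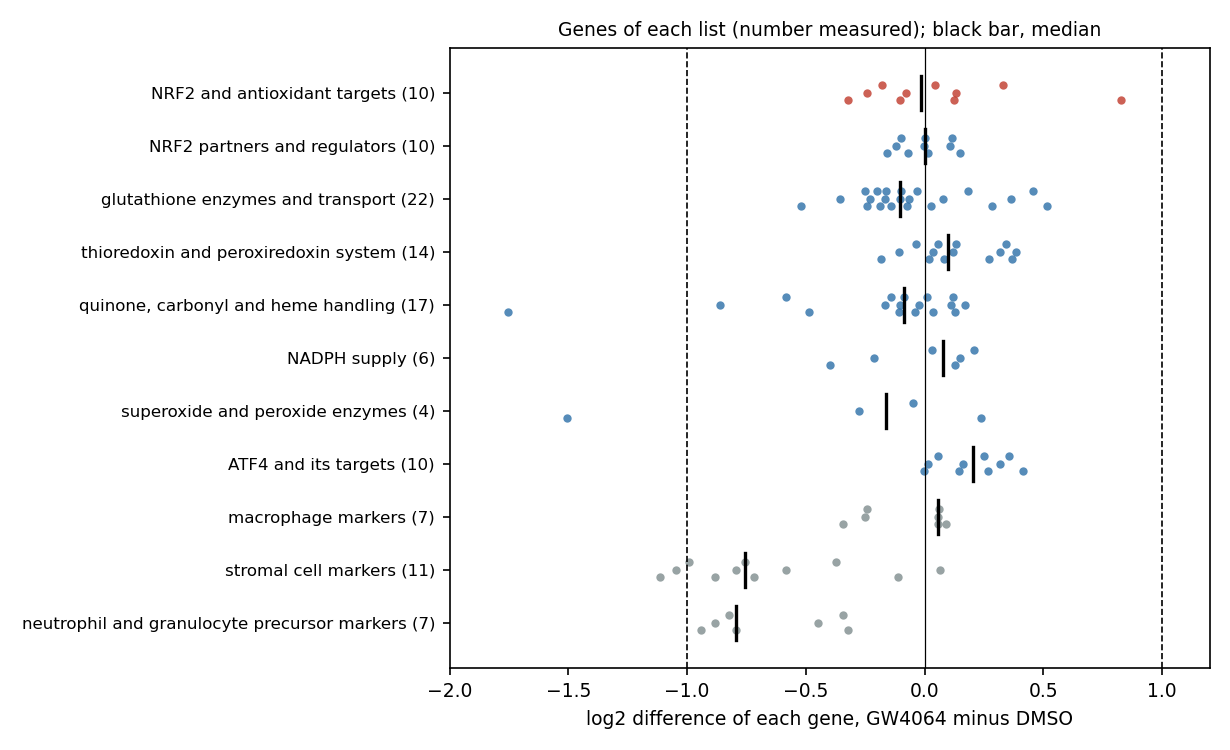
Log2 difference, GW4064 minus DMSO, of each measured gene of the NRF2 pathway genes (red), of the related lists (blue) and of the macrophage, stromal and granulocyte marker lists (grey), with the number measured in brackets, a black bar at each median and dashed lines at 2-fold. Points are offset vertically for visibility only. Gsr is the single red point beyond 0.5, Akr1b7 (-1.75) and Sod3 (-1.50) are the blue points beyond 2-fold, and the stromal and granulocyte markers have medians of -0.76 and -0.79.

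Enzymes that remove superoxide and hydrogen peroxide directly held another large difference. Of 4 genes, 1 was higher and 3 lower. Sod2, the mitochondrial superoxide dismutase, was the highest with 0.24. Sod3, the secreted superoxide dismutase, read 1812 with DMSO and 669 with GW4064, which is -1.50 on the log2 scale, from 1 probe outside the clustered areas. It stayed past 2-fold under each of the 11 other ways of processing, between -1.69 with spike-in centring and -1.44 after a normexp background correction. Sod3 is known as a product of smooth muscle cells and fibroblasts among others. Of 12 stromal markers, 11 were measured and 10 were lower, between -1.11 and 0.065, and the summed signal of the brightest probe of each of the 12 was 40599 with DMSO and 22738 with GW4064, 0.535 of the DMSO level after scaling. For the 7 macrophage markers, of which 4 were higher and 3 lower, this share was 0.904, with Csf1r alone giving 169338 of the summed DMSO signal of 306618. Their part in the difference of Sod3 was not tested. In a bulk culture, fewer cells of a type and less RNA per cell cannot be told apart.

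Slc7a11 is known to be under control of ATF4, the factor of the amino acid and stress response, as well as of NRF2, and the genes of that response were therefore set beside it. Of 11 genes for ATF4 and its targets, 10 could be measured (9 higher, 1 lower), none by 2-fold, with a median of 0.20, where 51.6% of all genes were higher. With spike-in centring, which lowers every gene alike, 5 were higher and 5 lower, with a median of 0.013. The median of all genes was then -0.18, and 9 of the 10 lay above it on either scale. Phgdh, the first enzyme of serine synthesis, was the highest with 0.41, and Ddit3, the factor CHOP, was the lowest with -0.0041. Slc7a11 at -0.32, from a single dim probe, lay below all 10 of them. The 11 genes are a selection. Slc3a2 (-0.36), Chac1 (0.46) and Sesn2 (0.27), placed in other lists and named here after their values were seen, were not counted among them. The part of ATF4 in the difference of Slc7a11 was not tested.

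Across the 7 related lists, 83 of 88 genes could be measured, 43 of them higher and 40 lower. Over these 83 the median was 0.011, beside 0.0068 for all genes. None was higher by 2-fold, and Sod3 and Akr1b7, 2 genes, were lower by more than that. Both shares are to be read against the 2.04% and 2.71% of all genes.

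The scale of the arrays bears on the small differences. The E1A spike-in control RNA, which should be equal in both samples by the design of such controls, was brighter on the GW4064 array by a median log2 of 0.19 over 8 probes (0.060 to 0.23). Centring on it lowers every gene by 0.19, and the median of all genes is then -0.18. On that scale Keap1 (-0.057), Hmox1 (-0.065) and Txnrd1 (-0.15) were lower with GW4064, so that 2 genes were higher, Gsr with 0.64 and Gclc with 0.14, and 8 lower. The thioredoxin list then had a median of -0.091 with 5 genes higher and 9 lower. Of its 14 genes, 11 lay above the median of all genes and 3 below it on either scale. Relative to the median of all genes, 5 of the 10 genes were higher and 5 lower on either scale. Txnrd1 also changed sign under quantile normalization. Gsr and Gclc were higher, and Nfe2l2, Nqo1, Gclm, Srxn1 and Slc7a11 lower, under each of the 11 other settings.

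**Figure D4:**
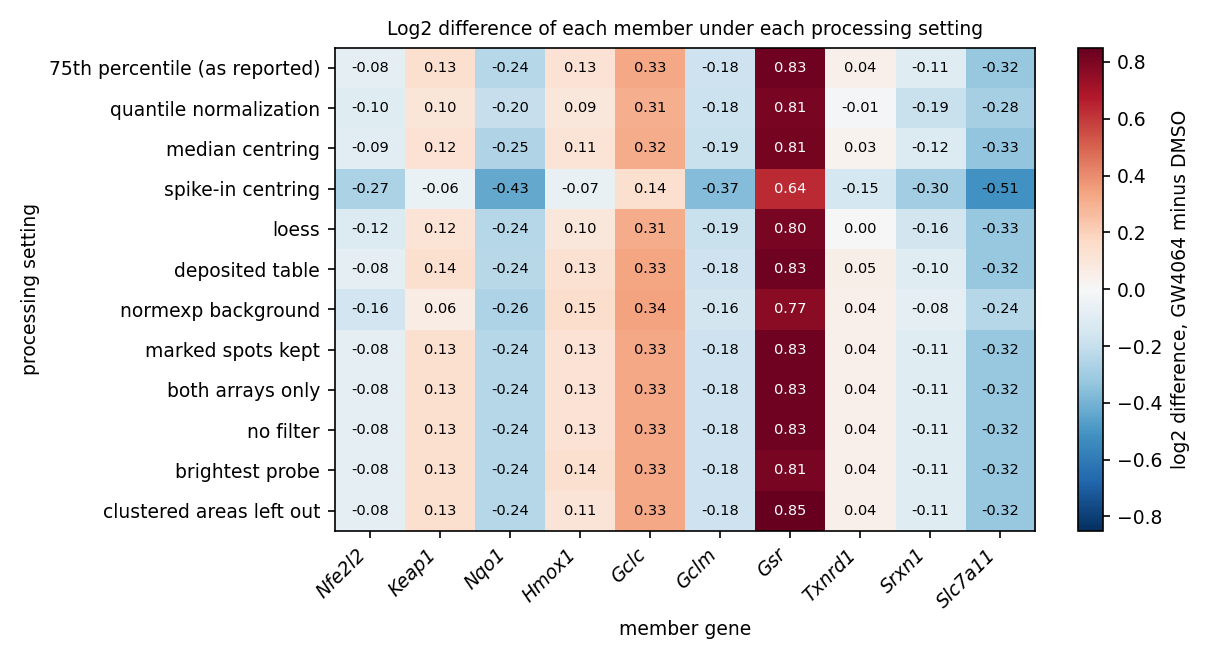
Log2 difference, GW4064 minus DMSO, of each NRF2 pathway gene (columns) under the processing used in the text (top row) and 11 others (rows), with the colour scale in log2 units. Gsr stays between 0.64 and 0.85, and spike-in centring shifts the whole row down by 0.19 and turns Keap1, Hmox1 and Txnrd1 below 0.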

How the data were processed

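Total RNA of BMDMs under M2 conditions was read on 1 single-colour (Cy3) Agilent array for DMSO and 1 for GW4064, and the file headers give both arrays the same scan. The authors deposited the intensity of each spot from Feature Extraction 10.7.1.1 (named in the submitters' processing notes), after its local background subtraction and spatial detrending, unscaled between arrays. A log2 table of the same arrays was also deposited by the authors. Its normalization is not given in the sources used here. The difference between its columns equalled the one computed here for 39200 probes apart from a constant of 0.0022, while the level to which each probe was centred stays unknown (column medians 0.035 and -0.051). The pathway analysis in GeneSpring was not used.

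Each array's log2 processed signal was lowered by its 75th percentile, taken over the 43020 spots that are no controls. Spots marked as uneven (215 with DMSO, 30 with GW4064) or as outliers among copies were left out, none was saturated, and spots of a probe were averaged. Of 39200 probes, 57.4% were well above background with DMSO and 58.5% with GW4064, and the lowest such signals were 15.7 and 15.1. A probe well above background on 1 array only was set on the other to the higher of its own and that lowest value, as a bound, and probes above on neither were left out. A gene is the mean of its probes. Symbols came from RefSeq transcripts of GRCm38.p6 (26439 probes matched), and no coordinates are given since the array design names another build. For a probe, the software's errors of both signals were combined on the log2 scale.

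With 1 array per condition no test was run, and differences are given by size, with 2-fold as the threshold. From each related list the text names the genes furthest up and down among those well above background on both arrays and those past 2-fold, and other names are said to be chosen later. The members, lists and alternatives were chosen with earlier results of these data known. The calculation was tested on simulated data in which 200 probes were changed 4-fold. At the 2-fold threshold 184 of them were recovered and 0 others were called. The simulated GW4064 array was the DMSO array plus small random noise of the same size at every spot, which largely fixed the 0 beforehand. The simulation held neither clustered areas nor the larger errors of dim probes. Smaller changes, such as those of the members, were not simulated. Alternatives were quantile, median, spike-in and loess (span 0.3) scaling, the deposited table, normexp (offset 50) computed from median spot signals, marked spots kept, other filters on dim probes, the brightest probe, areas with clustered 8-fold differences left out, and thresholds of 1.5-fold and 4-fold. The tools were limma 3.58.1 under R 4.3.3, and matplotlib 3.10.9, statsmodels 0.14.6, pandas 2.3.3, scipy 1.17.1 and numpy 2.4.6 under Python 3.11.15.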

Additional observations from a re-analysis of the deposited data

How the results depend on the processing

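No paired analysis was possible because only 1 array was made for DMSO and 1 for GW4064. The counts of 0 members 2-fold or more higher and 0 lower held under all 11 other ways of processing. Keeping marked spots and the other filters on dim probes left every member's value unchanged, so these could not move the counts. At 1.5-fold 0 members were lower and 1 member, Gsr, was higher. The counts of 0 at 4-fold follow from those at 2-fold. The median of the members, -0.017, moved to -0.21 with spike-in centring, which lowers all genes alike, and by less than 0.077, the median SD over copies, under the 10 others. The counts over all genes, 276 higher and 367 lower, moved with the settings. They were 107 and 164 for probes well above background on both arrays, 107 and 163 in the deposited table (same filter), 698 and 767 without a filter, 72 and 64 after normexp, and 168 and 202 without the areas of clustered 8-fold differences. At 1.5-fold they were 594 and 752, and at 4-fold 65 and 79. With spike-in centring 28.8% of the changed genes were higher, and after normexp 52.9%, against 42.9%. Of the members, Nqo1 and Slc7a11 had the signals nearest to background, between 10.9 and 16.4 times the lowest counted as well above it.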
